A study of Mus musculus with 8 samples.

Results

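This report is about 9 genes that mark B cells in lymph node (LN), namely Cd79a, Cd79b, Ms4a1, Cd22, Blk, Pax5, Ebf1, Cr2 and Fcer2a, out of 12393 genes with a probe set of their own on the array. A probe set is the group of short oligonucleotides on the array that measures 1 transcript, and its signal is given on a log2 scale, so that a difference of 1 is a change of 2-fold. The genes were chosen for their known roles in B cells, and the rule for their probe sets uses no difference between groups. All 9 had at least 1 probe set annotated to them alone, 14 in all, and the one with the highest mean over the arrays stands for the gene. LN RNA was hybridized to 8 arrays, each from 1 pool of at least 3 mice of both sexes aged 8 weeks. The 6 groups were H3RKO and WT mice taken 24 h after CFA+PTX (1 array each), H3RKO and WT mice taken 24 h after CFA (1 array each), and untreated H3RKO and WT mice (2 arrays each). CFA (complete Freund's adjuvant) holds killed mycobacteria in oil, and PTX is pertussis toxin. The titles of the CFA+PTX samples mention PTX only, and their descriptions, which were followed here, name both agents. All mice were on the C57Bl/6 background. H3RKO mice lack the histamine H3 receptor through a germline mutation of Hrh3 and were kept at the study's own institution, whereas WT mice were purchased, so genotype and colony cannot be told apart.

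B cells recognise antigen through a membrane immunoglobulin that signals by way of its partner chains, CD79A and CD79B. Their cytoplasmic tails are phosphorylated by kinases of the Src family, which include BLK and LYN, and pass the signal on through SYK, BLNK, BTK and PLCG2. CD22 restrains this signal, whereas complement receptor 2, encoded by Cr2, lowers the threshold for it when antigen carries complement fragments. EBF1 and PAX5 are the transcription factors that set and hold B cell identity, and genes such as Cd79a and Ms4a1 depend on them. In LN, B cells fill the follicles of the cortex, and follicular dendritic cells in the same follicles also carry complement receptor 2. Ebf1 is also active in cells of fat and stroma.

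Promoters of 6 of the 9 genes were found in the RefSeq table of assembly GRCm38.p6, in 9 windows that each run from 250 bases before to 50 after a transcription start. The windows of 3 genes are shown because they stand for the receptor itself (Cd79a) and for both genes with the widest range over the arrays (Cr2 and Fcer2a). Capitals mark every match, on either strand, to CCCNNGGG (the core of the EBF site), GTGGGAA (RBPJ, the DNA-binding partner of Notch), GGAAGT (ETS factors) and CACCTG (an E-box).
Cd79a, chr7:24897247-24897546, plus strand: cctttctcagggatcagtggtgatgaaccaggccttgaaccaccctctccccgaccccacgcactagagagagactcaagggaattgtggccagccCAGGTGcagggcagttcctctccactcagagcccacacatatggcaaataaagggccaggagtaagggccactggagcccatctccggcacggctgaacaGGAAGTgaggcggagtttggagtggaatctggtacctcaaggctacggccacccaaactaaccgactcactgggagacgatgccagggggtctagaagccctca
Cr2, chr1:195176670-195176969, minus strand: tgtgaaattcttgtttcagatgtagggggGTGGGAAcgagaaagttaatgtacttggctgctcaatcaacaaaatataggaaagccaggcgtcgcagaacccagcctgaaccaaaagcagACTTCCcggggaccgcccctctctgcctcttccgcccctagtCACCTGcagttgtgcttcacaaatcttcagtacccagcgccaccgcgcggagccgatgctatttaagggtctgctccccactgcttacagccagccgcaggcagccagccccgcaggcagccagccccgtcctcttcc
Fcer2a, chr8:3694125-3694424, minus strand: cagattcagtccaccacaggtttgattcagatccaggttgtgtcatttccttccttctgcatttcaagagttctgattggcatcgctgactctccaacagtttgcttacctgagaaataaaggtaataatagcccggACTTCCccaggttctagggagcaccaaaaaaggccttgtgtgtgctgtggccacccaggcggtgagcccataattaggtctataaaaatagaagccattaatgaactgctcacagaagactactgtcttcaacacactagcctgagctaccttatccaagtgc
In the Cd79a window the ETS letters lie at −54 to −49 and the E-box letters at −154 to −149 from the start. The Cr2 window holds the RBPJ letters at −221 to −215, the ETS letters at −130 to −125 and the E-box letters at −88 to −83, and this Fcer2a window holds the ETS letters at −113 to −108. The table has 2 more Fcer2a windows at other starts, of which the one at chr8:3690812-3691111 holds the E-box letters at −244 to −239 and at −99 to −94. None of these matches overlapped another. Of all 32851 windows in the table, 13.7% held the EBF letters, 6.38% the RBPJ letters, 23.8% the ETS letters and 20.2% the E-box letters. A match in so common a set of letters is a description and does not show a bound site. The windows shown hold no match to the EBF letters. Only these exact letters were searched, so the lack of a match does not show that a site is absent.

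The arrays were alike over all probe sets, with Pearson r between 0.990 and 0.998, and array medians lay between 7.94 and 8.00. Signals of T cell genes, the other main lymphocytes of LN, averaged 10.72 to 11.03 on the 8 arrays for the 15 of 18 listed genes that were measured. The WT CFA+PTX array stood apart in the salivary and lacrimal gland list, whose 6 genes averaged 5.39 there, against 13.26 to 13.83 on 6 arrays and 10.71 in WT untreated replicate 1. The other arrays thus carried high signal of gland genes and this array did not, so they do not read LN alone. Treatment comparisons are therefore also given without the WT CFA+PTX array, whereas the genotype difference after CFA+PTX and its interactions have no other WT array and could not be refitted. The 9 B cell genes averaged 11.14 in H3RKO CFA+PTX, 11.02 in WT CFA+PTX, 11.20 in H3RKO CFA, 11.31 in WT CFA, 11.17 and 11.17 in untreated H3RKO and 11.18 and 11.25 in untreated WT arrays. The WT CFA+PTX array was thus the lowest and the WT CFA array the highest. In whole tissue, fewer B cells and less of a transcript per B cell cannot be told apart.

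The 2 signalling chains of the B cell receptor varied little over the arrays. Cd79a had a log2 signal of 12.61 in H3RKO CFA+PTX, 12.51 in WT CFA+PTX, 12.66 in H3RKO CFA, 12.81 in WT CFA, 12.65 and 12.63 in untreated H3RKO arrays and 12.72 and 12.65 in untreated WT arrays. The WT CFA array was the highest of the 8 and the WT CFA+PTX array the lowest, and the range over all arrays was 0.30. Cd79b, its partner, had 12.65 in H3RKO CFA+PTX, 12.54 in WT CFA+PTX, 12.69 in H3RKO CFA, 12.78 in WT CFA, 12.62 and 12.53 in untreated H3RKO and 12.53 and 12.70 in untreated WT arrays. Here too the WT CFA array was the highest, and the untreated arrays of each genotype overlapped with the other. The range of 0.25 was the narrowest among the 9 genes.

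Ms4a1 encodes CD20, a membrane protein of mature B cells. Its log2 signal was 12.93 in H3RKO CFA+PTX, 12.72 in WT CFA+PTX, 13.00 in H3RKO CFA, 13.16 in WT CFA, 13.02 and 13.07 in untreated H3RKO and 12.97 and 13.09 in untreated WT arrays. Both CFA+PTX arrays lay below the other 6. A second Ms4a1 probe set spread wider, from 10.11 in WT CFA+PTX to 11.03 in WT CFA, and had the sign of the first in all 11 comparisons. Cd22, the inhibitory lectin of the receptor complex, had 12.39 in H3RKO CFA+PTX, 12.43 in WT CFA+PTX, 12.59 in H3RKO CFA, 12.64 in WT CFA, 12.38 and 12.43 in untreated H3RKO and 12.52 and 12.53 in untreated WT arrays. Both untreated H3RKO arrays lay below both untreated WT arrays, and both CFA arrays lay above the other 6. The second Cd22 probe set did not share the first pattern, with 11.17 and 11.08 in untreated H3RKO and 10.96 and 11.10 in untreated WT arrays. Blk, a Src family kinase largely confined to B cells among lymphocytes, had 10.95 in H3RKO CFA+PTX, 10.93 in WT CFA+PTX, 11.10 in H3RKO CFA, 11.20 in WT CFA, 10.90 and 10.92 in untreated H3RKO and 11.03 and 11.11 in untreated WT arrays. As with Cd22, untreated H3RKO and untreated WT arrays of Blk did not overlap.

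Ebf1 and Pax5 encode the transcription factors of the group. Ebf1 had a log2 signal of 9.55 in H3RKO CFA+PTX, 9.47 in WT CFA+PTX, 9.47 in H3RKO CFA, 9.62 in WT CFA, 9.44 and 9.42 in untreated H3RKO and 9.28 and 9.56 in untreated WT arrays. Both extremes of Ebf1 were WT arrays, and the untreated WT pair alone covered most of its range of 0.34. Pax5 had 6.37 in H3RKO CFA+PTX, 6.38 in WT CFA+PTX, 6.37 in H3RKO CFA, 6.37 in WT CFA, 6.44 and 6.31 in untreated H3RKO and 6.59 and 6.38 in untreated WT arrays. The 4 injected arrays lay between 6.37 and 6.38 for Pax5. These signals lie below the median of all values, 7.97, and since the values carry no call of signal over background, whether this probe set measured the transcript is not known.

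Cr2 and Fcer2a, which mature follicular B cells carry, had the widest ranges of the 9. Cr2 had a log2 signal of 11.07 in H3RKO CFA+PTX, 10.71 in WT CFA+PTX, 11.21 in H3RKO CFA, 11.25 in WT CFA, 11.29 and 11.44 in untreated H3RKO and 11.20 and 11.31 in untreated WT arrays. The WT CFA+PTX array was the lowest and H3RKO untreated replicate 2 the highest, a range of 0.74, the widest of the 9. Fcer2a encodes CD23, the low-affinity receptor for IgE. It had 11.70 in H3RKO CFA+PTX, 11.50 in WT CFA+PTX, 11.73 in H3RKO CFA, 11.97 in WT CFA, 11.83 and 11.77 in untreated H3RKO and 11.79 and 11.92 in untreated WT arrays. On its second probe set Fcer2a had 9.90 in H3RKO CFA+PTX, 9.63 in WT CFA+PTX, 9.68 in H3RKO CFA, 10.20 in WT CFA, 10.22 and 10.21 in untreated H3RKO and 10.20 and 10.12 in untreated WT arrays. There the 3 arrays other than WT CFA among the injected ones lay below all 4 untreated arrays.

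**Figure D1:**
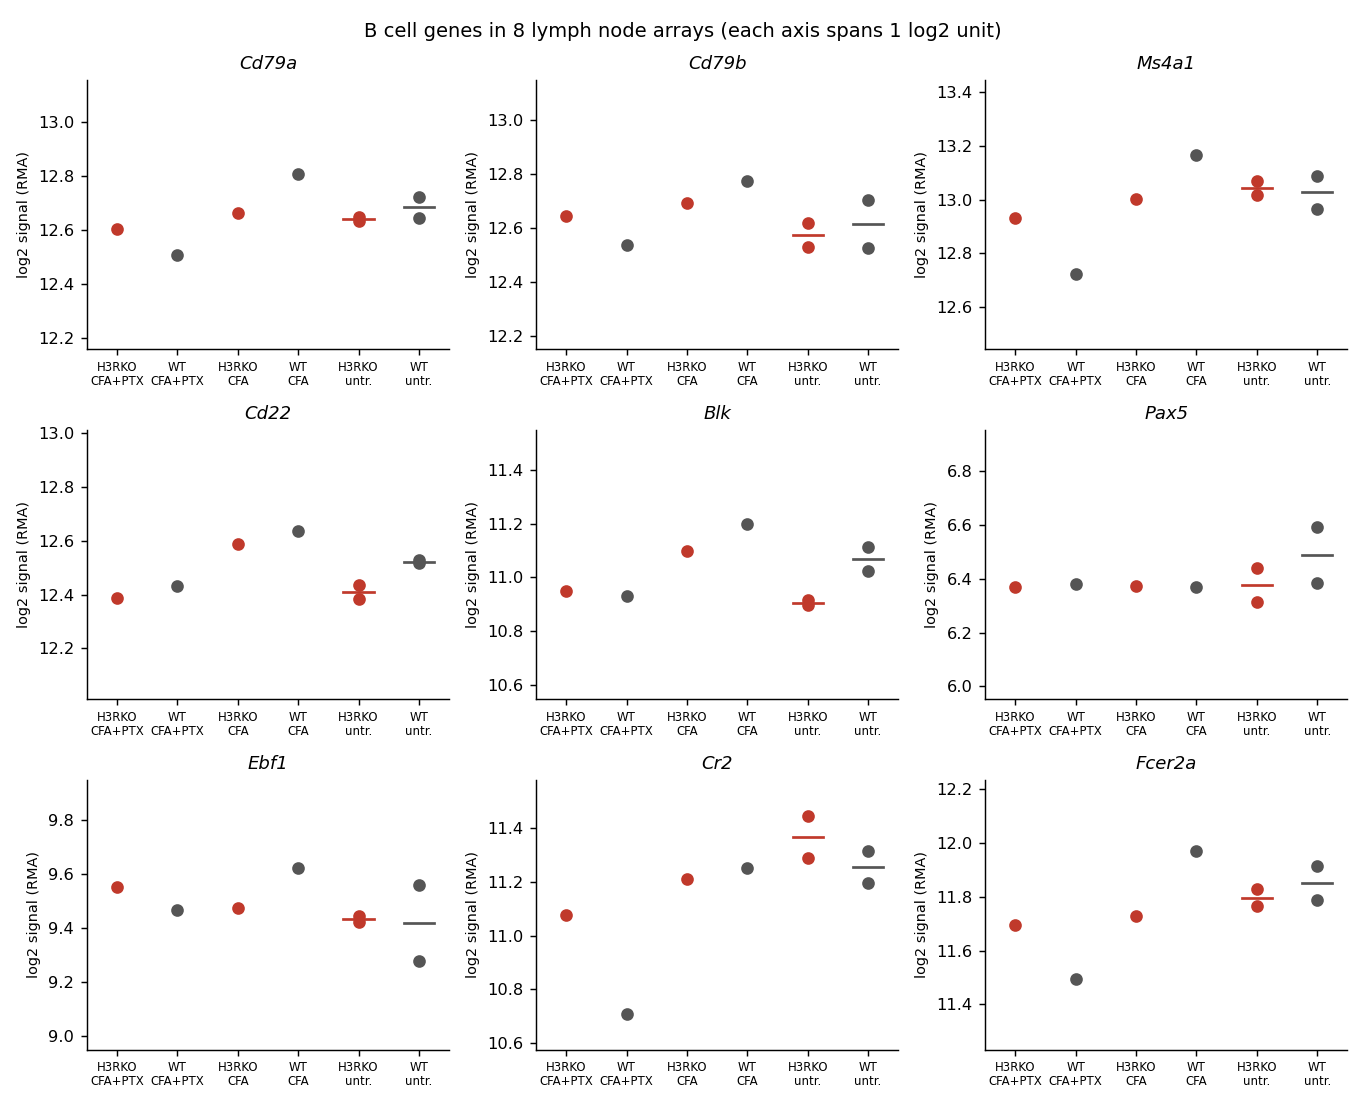
Log2 signal (RMA) of the 9 B cell genes by group, with 1 point per array (H3RKO red, WT grey) with a short line marking the average of each untreated pair; every vertical axis spans 1 log2 unit. The WT CFA array is the highest of the 8 for 7 of the 9 genes and the WT CFA+PTX array the lowest for 4, with Cr2 the widest (0.74).

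The treatments were compared over both genotypes, to ask how much B cell RNA the adjuvants moved within 24 h. Signals of most of the 9 genes were lower in the CFA+PTX arrays than in the CFA arrays, by up to 0.34 on the log2 scale, but none was called, which here means an adjusted p under 0.05. For 7 of the 9 genes (Cd79a, Cd79b, Ms4a1, Cd22, Blk, Cr2 and Fcer2a), both CFA+PTX arrays lay below both CFA arrays, against 18.9% of all 22626 probe sets. The median difference of the 9 was −0.20, with 8 of 9 below 0, beside a median of 0.00 over all probe sets. The 9 genes are read in the same cells of the same 4 pools, so they do not count as 9 separate observations.

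Cr2 averaged 10.89 in CFA+PTX and 11.23 in CFA arrays, a difference of −0.34 ± 0.11 (SE, n = 2 arrays each; adjusted p = 0.891 from limma over all probe sets). Ms4a1 differed by −0.26 ± 0.10, Fcer2a by −0.25 ± 0.11, Blk by −0.21 ± 0.08, Cd22 by −0.20 ± 0.07, Cd79a by −0.18 ± 0.08 and Cd79b by −0.14 ± 0.09 (SE). Ebf1 (−0.04 ± 0.11) and Pax5 (0.01 ± 0.10) showed no such difference in their arrays. At an adjusted p under 0.05, 0 of the 9 genes and 0% of all probe sets were called. At an unadjusted p under 0.05 there were 4 of 9 (Cr2, Cd22, Blk and Ms4a1), all lower, against 5.47% of probe sets in either direction. Without the WT CFA+PTX array the median was −0.09, without the WT CFA array it was −0.12, and in neither case a member had an unadjusted p under 0.05. Relative to 7 pan-leukocyte genes such as Ptprc (CD45), of which 7 were below 0 here (median −0.11), the median of the B cell genes was −0.10 and again none had an unadjusted p under 0.05. With the mean of the gland list as a covariate, 2 of the 9 genes changed sign and 0 of 9 had an unadjusted p under 0.05. That mean was by far the lowest in the WT CFA+PTX array (5.39), so this fit is not a check separate from leaving that array out. 

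Against untreated LN, the CFA+PTX arrays had less Cr2 signal, 10.89 on average against 11.31, a difference of −0.42 ± 0.10 (SE, n = 2 and 4 arrays; adjusted p = 0.221). The confidence interval runs from −0.65 to −0.19. Both CFA+PTX arrays lay below all 4 untreated arrays for Cr2, Ms4a1, Fcer2a and Cd79a, 4 of 9 genes where 10.4% of probe sets did. Fcer2a differed by −0.23 ± 0.10 and Ms4a1 by −0.21 ± 0.09 (SE, adjusted p = 0.404 and 0.405 from limma). At an adjusted p under 0.05, 0 of 9 genes and 0% of probe sets were called, and at an unadjusted p under 0.05 it was 3 of 9, all lower, against 12.3%. The median of the 9 genes was −0.06, but 0.02 relative to the pan-leukocyte genes. Without the WT CFA+PTX array the differences were −0.26 for Cr2, −0.08 for Ms4a1 and −0.07 for Fcer2a, 2 of the 9 genes changed sign, and 0 of 9 had an unadjusted p under 0.05. Follicular dendritic cells also carry complement receptor 2, and 3 of the 5 genes measured of their list were above 0 after CFA+PTX, with none called. Among these was Cxcl13, the chemokine that draws B cells into follicles, chosen after its values were seen. It had 13.17 in H3RKO CFA+PTX and 13.26 in WT CFA+PTX against 12.63 to 12.96 in the untreated arrays (difference 0.38, adjusted p = 0.237 from limma). The CFA arrays were above the untreated ones too, with 12.97 in H3RKO and 13.04 in WT. Of the list, 2 genes were below 0, the lowest being Madcam1 (−0.41), with 8.26 in H3RKO CFA+PTX and 8.33 in WT CFA+PTX against 8.25 to 9.34 untreated. The mean of that list was 11.05 and 11.12 in the CFA+PTX arrays, against 10.98 to 11.15 in untreated arrays. Its part in the Cr2 value was not tested.

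After CFA alone, signals differed little from untreated LN. Cd22 was the 1 gene of 9 whose CFA arrays both lay above all 4 untreated arrays (7.75% of probe sets did), with a difference of 0.15 ± 0.06 (SE, n = 2 and 4 arrays, adjusted p = 0.797). Blk differed by 0.16 ± 0.07, Cd79b by 0.14 ± 0.08 and Cd79a by 0.07 ± 0.07 (SE). The adjusted call found 0 of 9 genes and 0% of probe sets, and at an unadjusted p under 0.05 it was 1 of 9 (Cd22), against 6.25%. In the fit without the WT CFA+PTX array, the Cd22 difference was again 0.15 and 0 of 9 genes had an unadjusted p under 0.05. For the 9 genes the 95% confidence intervals reached a change of at most 1.27-fold in either direction, and 1.55-fold on the second Ms4a1 probe set. For all 4 injected arrays against the 4 untreated ones, 0 of 9 genes were called beside 0.0177% of probe sets, and no gene of the 9 had arrays that did not overlap (6.05% of probe sets in either direction). Cr2 was the 1 member at an unadjusted p under 0.05 (−0.25 ± 0.08, SE, adjusted p = 0.353), against 11% of probe sets. The second Fcer2a probe set, which does not stand for its gene, differed by −0.34 ± 0.12 (SE, unadjusted p = 0.0250, adjusted p = 0.385 from limma). Without the WT CFA+PTX array the Cr2 difference was −0.17 and 0 of 9 genes had an unadjusted p under 0.05.

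**Figure D2:**
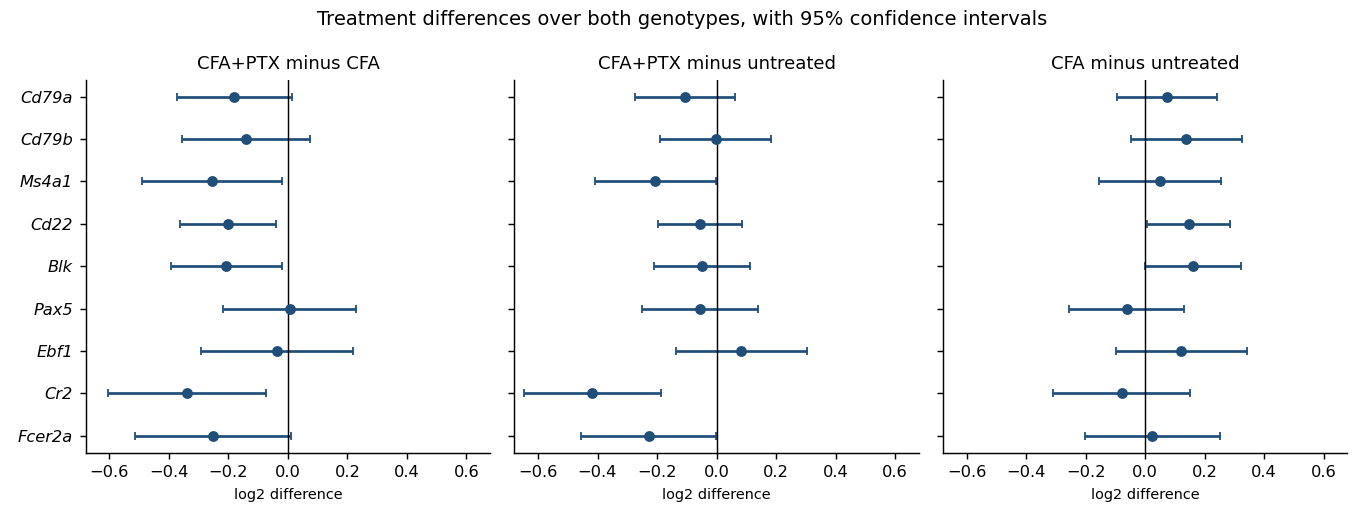
Log2 differences between treatments over both genotypes for the 9 B cell genes, as points with 95% confidence intervals from limma; the panels show CFA+PTX minus CFA, CFA+PTX minus untreated and CFA minus untreated. Cr2 has the lowest values where CFA+PTX is involved (−0.34 and −0.42), and none of the genes was called in any panel.

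The genotypes were compared within each treatment by the criterion of the study, namely a fold change over 2 at an unadjusted p under 0.05. After CFA+PTX, H3RKO had the higher signal for 7 of 9 genes, with a median difference of 0.10 beside −0.02 over all probe sets. Cr2 had the largest, at 11.07 in the H3RKO array and 10.71 in the WT array, a difference of 0.37 ± 0.14 (SE, 1 array each), or 1.29-fold. Ms4a1 followed with 0.21 ± 0.13 and Fcer2a with 0.20 ± 0.13 (SE). None of the 9 passed the criterion, beside 0.362% of probe sets, and 1 of 9 (Cr2) had an unadjusted p under 0.05, against 3.24%. The WT array of this pair is the one without gland signal (5.39 against 13.58 in H3RKO for the gland list). Genes of neutrophils also separated this pair, with 10 of 10 above 0 and list means of 8.89 in H3RKO and 7.61 in WT. Of these 10, 8 passed the study's criterion, which uses an unadjusted p. The part of either in the B cell values was not tested.

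After CFA the signs were mostly the other way, with H3RKO below WT for 8 of 9 genes and a median of −0.10 (0.02 over all probe sets). Fcer2a differed most, at 11.73 in the H3RKO array against 11.97 in the WT array (−0.24 ± 0.13, SE), followed by Ms4a1 (−0.16 ± 0.13), Ebf1 (−0.15 ± 0.17) and Cd79a (−0.15 ± 0.12). On the second Fcer2a probe set the difference was −0.52 ± 0.12 (unadjusted p = 0.00595, adjusted p = 1.00 from limma) and on 1 further Ebf1 probe set −0.39 ± 0.15. None of the 9 genes passed the criterion, against 0.225% of probe sets, and 0 of 9 had an unadjusted p under 0.05, against 3.38%. The WT CFA array was the highest of the 8 for 7 of the 9 genes.

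In untreated LN, where each genotype has 2 arrays, the 9 genes differed by −0.16 to 0.11. Blk averaged 10.91 ± 0.01 in H3RKO and 11.07 ± 0.06 in WT arrays (SD, n = 2 each), a difference of −0.16 ± 0.09 (SE, adjusted p = 0.928 from limma). Cd22 averaged 12.41 ± 0.04 in H3RKO and 12.52 ± 0.01 in WT arrays (SD, n = 2 each), a difference of −0.11 ± 0.08 (SE), while its second probe set differed by 0.09. These were the 2 of 9 genes whose H3RKO arrays both lay below both WT arrays, as did 17.9% of all probe sets. Cd79a averaged 12.64 ± 0.01 in H3RKO and 12.68 ± 0.05 in WT arrays, and Ms4a1 averaged 13.04 ± 0.04 in H3RKO and 13.03 ± 0.08 in WT arrays (SD, n = 2 each). None of the 9 passed the criterion, against 0.15% of probe sets, and 0 of 9 had an unadjusted p under 0.05, against 5.43%. On the probe sets that stand for the 9 genes, the confidence intervals reached at most 1.31-fold in untreated LN, 1.48-fold after CFA and 1.65-fold after CFA+PTX. On the second Ms4a1 probe set they reached 1.51-fold, 1.87-fold and 2.38-fold, so a larger change is not excluded there.

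**Figure D3:**
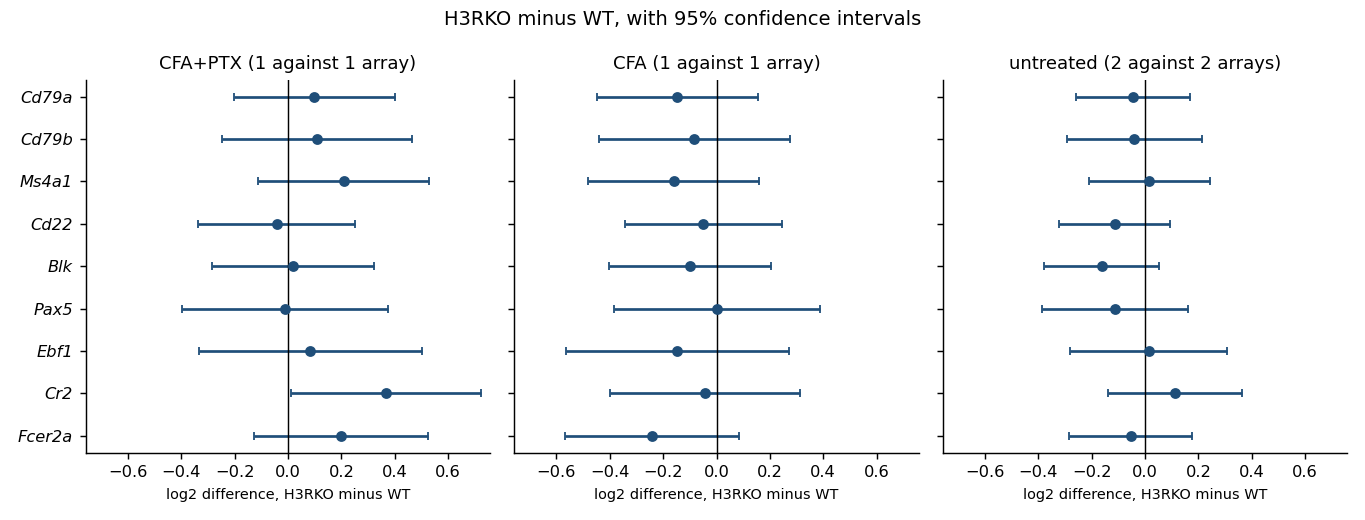
Log2 difference of H3RKO minus WT for the 9 B cell genes after CFA+PTX, after CFA and in untreated LN, as points with 95% confidence intervals from limma. All points lie between −0.24 and 0.37, and in untreated LN the intervals stay within −0.39 and 0.36.

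Over all treatments together, the genotype differences ran from −0.10 (Blk) to 0.14 (Cr2), and intervals reached at most 1.25-fold. On the second Ms4a1 probe set the interval reached 1.42-fold. Cr2 averaged 11.25 in the 4 H3RKO and 11.12 in the 4 WT arrays (0.14 ± 0.08, SE, adjusted p = 0.999 from limma), and Blk averaged 10.97 in H3RKO and 11.07 in WT arrays (−0.10 ± 0.06). The adjusted call gave 0 of 9 genes and 0% of probe sets, with 0 of 9 at an unadjusted p under 0.05 against 3.64%. Without the WT CFA+PTX array the median of the 9 was −0.07, against −0.03 with it, and again 0 of 9 had an unadjusted p under 0.05. It was 1 of 9 without moderation, in a robust fit with trend and with the gland mean as a covariate. H3RKO and WT arrays overlapped for all 9 genes, whereas 1.68% of probe sets did not overlap in one or the other direction. Whether the genotype difference itself depended on the treatment was tested by interaction terms. The difference after CFA+PTX minus that after CFA, a contrast added once the values had been seen, was above 0 for 8 of 9 genes, with a median of 0.23 beside −0.05 over all probe sets. It was 0.44 ± 0.19 for Fcer2a, 0.41 ± 0.20 for Cr2 and 0.37 ± 0.18 for Ms4a1 (SE). None was called (0% of probe sets), and 0 of 9 had an unadjusted p under 0.05 against 3.5%, although the second Fcer2a probe set reached 0.80 ± 0.17 (unadjusted p = 0.00412, adjusted p = 1.00). A further Ebf1 probe set reached 0.71 ± 0.21 (unadjusted p = 0.0155 from limma). Against untreated LN, the interaction was 0 of 9 called for CFA+PTX (0% of probe sets called, 2.85% at an unadjusted p under 0.05) and 0 of 9 for CFA (0% called, 5.72% at an unadjusted p under 0.05). No member had an unadjusted p under 0.05 in either on the probe set that stands for it. For CFA, the second Fcer2a probe set reached −0.57 ± 0.15 (unadjusted p = 0.00940, adjusted p = 0.848 from limma). A further Ebf1 probe set reached −0.37 ± 0.15 there (unadjusted p = 0.0493, adjusted p = 0.865 from limma).

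Other genes of the B cell programme were taken from 3 lists. Surface and antigen presentation genes were nearest to the 9 in the comparison of CFA+PTX with CFA, where 18 of 18 measured genes were below 0 with a median of −0.23, 0 called and 6 at an unadjusted p under 0.05. Tnfrsf13c, which encodes the receptor for the B cell survival factor BAFF, had the largest difference of that list (−0.53) and was chosen for mention after its values were seen. Its log2 signal was 10.69 in H3RKO CFA+PTX, 10.15 in WT CFA+PTX, 10.90 in H3RKO CFA, 11.01 in WT CFA, 10.88 and 10.73 in untreated H3RKO and 10.80 and 10.98 in untreated WT arrays. The WT CFA+PTX array was the lowest of the 8. Receptor signalling genes (15 of 20 measured) had a median of −0.06 in the same comparison, with 12 of 15 below 0, 0 called and 3 at an unadjusted p under 0.05. The transcription factor list (15 of 16 measured) had the same median, with 10 of 15 below 0, 0 called, and 3 at an unadjusted p under 0.05 of which 1 was higher. Over all probe sets, 11209 of 22626 were below 0 and 5.47% had an unadjusted p under 0.05. The surface list, refitted without the WT CFA+PTX array, had 16 of 18 below 0 with a median of −0.12 and 1 at an unadjusted p under 0.05, and Tnfrsf13c differed by −0.22. The signalling list then had a median of −0.03 with 1 at an unadjusted p under 0.05, and the transcription factor list a median of 0.01 with 3, against 2.09% of probe sets in that fit.

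In the genotype comparison after CFA+PTX, 15 of 18 surface genes were above 0 with a median of 0.18, 10 of 15 signalling genes with a median of 0.02 and 9 of 15 transcription factor genes with a median of 0.04. After CFA, 16 of 18, 12 of 15 and 14 of 15 genes of these lists were below 0, with medians of −0.09, −0.06 and −0.12. In untreated LN, the medians were −0.02, 0.01 and −0.01. None of these genes passed the criterion after CFA+PTX, after CFA or in untreated LN, beside 0.362%, 0.225% and 0.15% of probe sets. After CFA+PTX, 3 surface, 0 signalling and 2 transcription factor genes had an unadjusted p under 0.05, against 3.24%. In the same order it was 0, 0 and 3 after CFA (3.38%), and 0, 0 and 1 in untreated LN (5.43%). Of all 22626 probe sets, 9752 were above 0 after CFA+PTX and 9791 below 0 after CFA. Among T cell genes, 14 of 15 were above 0 in untreated LN (median 0.11), 10 of 15 after CFA (median 0.07) and 9 of 15 after CFA+PTX (median 0.02), and none passed the criterion. At an unadjusted p under 0.05 there were 2 of 15 in untreated LN, 0 after CFA and 0 after CFA+PTX. Of all probe sets, 10734 were above 0 in untreated LN and 12818 after CFA.

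**Figure D4:**
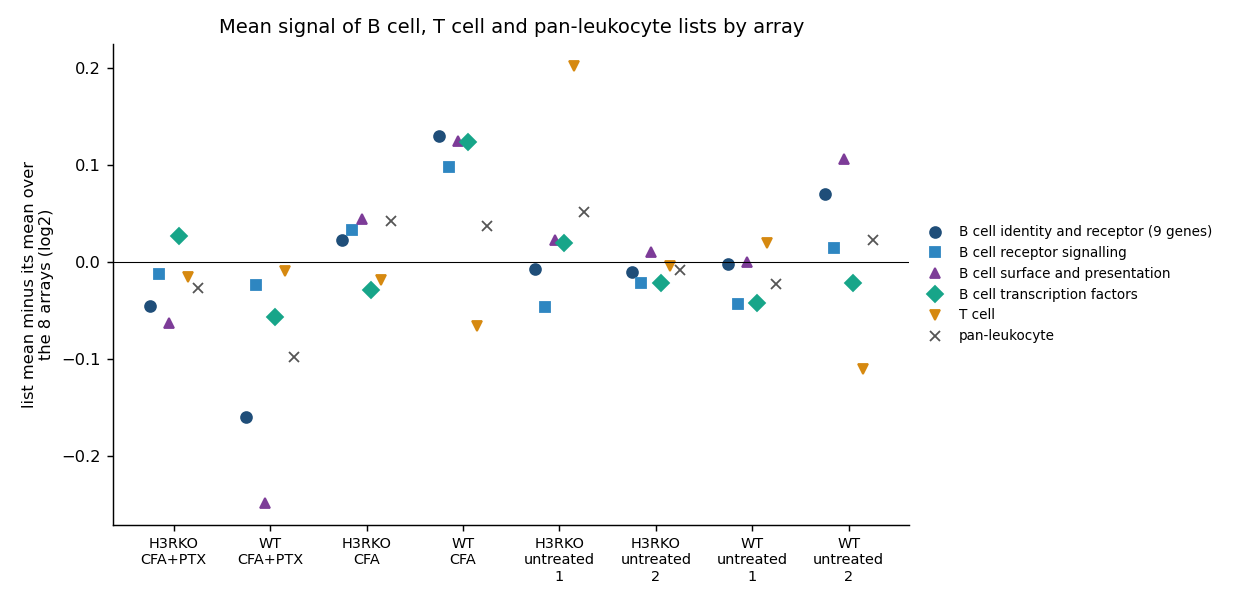
Mean log2 signal of 6 gene lists in each of the 8 arrays, as the difference from that list's own mean over the arrays; symbols stand for lists. The B cell surface list (−0.25) and the 9 B cell genes (−0.16) are lowest in the WT CFA+PTX array, as are the transcription factor list (−0.06) and the pan-leukocyte list (−0.10), and all 4 B cell lists are highest in the WT CFA array, whereas the T cell list is highest in H3RKO untreated replicate 1 (0.20).

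Members differed in how closely they followed the group over the 8 arrays. Fcer2a (Pearson r = 0.93 with the mean of the other 8 genes), Ms4a1 (0.93) and Cd79a (0.85) followed it best, Blk (0.71), Cd79b (0.68), Cd22 (0.64) and Cr2 (0.55) less so, and Ebf1 (0.26) and Pax5 (−0.14) hardly. Among 6475 other genes with an SD of at least 0.1 over the arrays, Cd180, a Toll-like receptor homologue of B cells, was most like the mean of the 9 (r = 0.97, Spearman's rho = 0.93). It had 9.25 in H3RKO CFA+PTX, 9.06 in WT CFA+PTX, 9.58 in H3RKO CFA, 9.71 in WT CFA, 9.41 and 9.44 in untreated H3RKO and 9.44 and 9.59 in untreated WT arrays. Next came Plcg2, the phospholipase of the receptor pathway (r = 0.96, rho = 0.90), Gga2, an adaptor of Golgi transport (0.96 and 0.93), Hhex, a homeobox factor (0.96 and 0.93), and Irf4, a transcription factor of activated B cells (0.95 and 0.90). These correlations describe 8 arrays that share 2 extreme ones, WT CFA and WT CFA+PTX, and genes are not independent replicates.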

How the data were processed

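The authors isolated total RNA from LN pools, labelled it and hybridized it to single-colour Affymetrix mouse arrays. The deposited log2 values were background-corrected, normalized and summarized per probe set by the authors with the Robust Multichip Average (RMA). They run from 2.42 to 14.40. No earlier step was repeated, and the values carry no detection call.

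Of 22690 probe sets, 64 controls were left out and 22626 tested. A platform annotation table pairs 20380 with 1 gene, 691 with several and 1555 with none, and listed genes it does not pair with a probe set of their own were not analysed here. Linear models were fitted in limma 3.58.1 (R 4.3.3, lmFit and eBayes) over all probe sets, with Benjamini-Hochberg adjustment. Genotype within a treatment and interactions used a mean for each of the 6 groups (2 residual degrees of freedom, prior 3.58), so a lone injected array is assumed to vary like the untreated pairs. Other comparisons used an additive model of genotype and treatment (4 residual degrees of freedom, prior 3.28). The study modelled groups by ANOVA and used the criterion of an unadjusted p under 0.05 with a fold change over 2. Arrays are pools, and the sources used here do not say whether those of a group came from separate experiments. In the 6-group model, p-values therefore measure the spread between the untreated pools only. In the additive model, the residual also holds any change of the genotype difference between treatments.

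Named genes are the 9 members, up to 4 called genes of each list and the 5 genes most like the members' mean. Tnfrsf13c, Cxcl13, Madcam1 and Jchain fall outside this rule and were chosen after their values were seen. Ptprc, Rag1 and Rag2, named as examples of their lists, fall outside it too. Members, lists and tests were chosen with earlier results of these data known. The interaction of CFA+PTX with CFA and the list values without the WT CFA+PTX array were added after seeing the data. The models were tested on simulated data. Plots were drawn with matplotlib 3.10.9. The number of arrays limits the precision.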

Additional observations from a re-analysis of the deposited data

How the results depend on the processing

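Over 21 alternatives (among them no moderation, a robust fit with trend, centring on array medians or pan-leukocyte genes, repeated quantile normalization, a filter on dim probe sets, other probe sets per gene, the gland mean as a covariate and each array left out), the count of B cell genes called stayed at 0 in all 177 fits and comparisons. The 10 differences with an unadjusted p under 0.05 in the main fit kept their direction in all 165 values under the alternatives. Part of this was fixed in advance. Settings that change only the moderation or the criterion leave each difference as it was. The genotype difference of Cr2 after CFA+PTX is 1 array minus 1 array, so leaving out another array cannot change it. Over the alternatives their adjusted p ran from 0.107 to 1. Cr2 after CFA+PTX against untreated ranged from −0.57 (without the H3RKO CFA+PTX array) to −0.26 (without the WT CFA+PTX array), Ms4a1 from −0.33 to −0.07 (gland covariate) and Fcer2a from −0.39 to −0.07 (without the WT CFA+PTX array). Of all 1571 values under the alternatives, 72 changed sign, though some of the 1571 could not change for the same reasons. The members' median of −0.04 for genotype in untreated LN was 0.01 without WT untreated replicate 2, and that of −0.03 over all treatments was 0.01 without either CFA array. The filter on dim probe sets removed Pax5. The filter on probe sets with the suffixes _s_at, _x_at and _a_at removed Cr2, whose 1 probe set carries the suffix _a_at.

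Numbers of untreated arrays name no shared litter or day in the labels, and same-numbered arrays deviated together only weakly (r = 0.12 over probe sets, 2 pairs). In untreated LN with a replicate block, 0 of 9 members were called, and 62 probe sets passed the study's criterion, against 34 without the block. Counts over all probe sets moved with other choices as well. At the study's criterion they were 15 in untreated LN, 16 after CFA and 30 after CFA+PTX without moderation, against 34, 51 and 82 with it, and 112, 210 and 189 at a fold change over 1.5. The filter on dim probe sets gave 14, 26 and 44, and an adjusted p under 0.05 gave 2, 0 and 2. Leaving out 1 array gave 34 to 115 in untreated LN, the highest without WT untreated replicate 2. Injected against untreated LN had 4 probe sets, and 0 to 20 under the alternatives.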

Other observations

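Genes of other B cell stages were measured too. Of 8 germinal centre and plasma cell genes, 8 were below 0 in injected against untreated arrays with a median of −0.10, 0 called and 1 at an unadjusted p under 0.05, where 10564 of 22626 probe sets were below 0 and 11% had an unadjusted p under 0.05. Without the WT CFA+PTX array 6 of 8 were below 0, with a median of −0.08 and 0 at an unadjusted p under 0.05. Jchain, which encodes the chain that joins immunoglobulin M and A into polymers, was chosen after its values were seen. It had a log2 signal of 12.68 in H3RKO CFA+PTX, 12.08 in WT CFA+PTX, 12.54 in H3RKO CFA, 12.56 in WT CFA, 12.73 and 12.34 in untreated H3RKO and 12.65 and 12.57 in untreated WT arrays, so the WT CFA+PTX array was its lowest, as for 4 of the 9 B cell genes. In injected against untreated arrays Jchain differed by −0.11, and by 0.06 without that array. Marginal zone genes (7 of 7 measured) had list means of 10.40 to 10.52. Genes of B cell precursors in bone marrow, among them Rag1 and Rag2, had list means of 6.78 to 7.03. None of either list was called in any comparison, beside at most 0.362% of probe sets. At an unadjusted p under 0.05, 3 of 7 precursor genes (2 lower, 1 higher) differed by genotype in untreated LN, against 5.43% of probe sets. It was also 3 of 7 over all treatments (2 lower, 1 higher), against 3.64%, and 0 to 2 of 7 in the other comparisons. Signals of Rag1 (4.11 to 4.79) and Rag2 (5.86 to 6.05) lie below the median of all values, 7.97. As for Pax5, whether they measured the transcripts is not known.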
